A study of Mus musculus with 8 samples.

Results

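Pax5, the E protein genes Tcf3, Tcf4 and Tcf12, and the inhibitor genes Id1, Id2 and Id3 were examined for 5-hydroxymethylcytosine (5hmC) in mouse germinal center B cells, as 7 listed genes out of 21887 protein-coding genes. The members were taken from the list by symbol, and each was read over its annotated span plus 2 kb on each side (GRCm38), called its window. The study set splenic germinal center B cells of C57BL/6 mice with the genotype TET2 Wild-Type (WT) against cells with the genotype TET2 Knock-Out (KO). DNA fragments carrying 5hmC had been immunoprecipitated and sequenced (hMeDIP-seq) in 2 libraries per genotype, numbered 2 and 3 in each. Matching input libraries were not analysed here. The labels give no age, sex, Cre driver or deleted exon, and name no animal for any library, so each p-value rests on library-to-library spread that may be technical.

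Pax5 encodes the paired-domain factor that commits cells to the B lineage and keeps them there. The E proteins are basic helix-loop-helix factors that bind the E-box motif as dimers and switch on B lineage genes and immunoglobulin rearrangement. Id proteins have the dimerization helices without the DNA-binding basic region, so they pair with E proteins and keep them off DNA. TET2 oxidizes 5-methylcytosine, mostly at CG dinucleotides, to 5hmC, which in many cell types is found over gene bodies and enhancers and less at CG-rich start sites.

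The lists held 270542 to 300950 peaks per library on the numbered and sex chromosomes and covered 110.6 to 139.3 Mb, with KO replicate 3 the lowest in covered bases and in median fold enrichment (4.38, against 4.89 to 5.51 in the others). Peaks of the 4 lists that touched or overlapped were merged into 356362 union regions, of which 166 lay in the member windows. The number of reads per library is unknown from these files, and peak lists do not show whether Tet2 is deleted, so the genotype labels were not checked. Values of the 4 libraries are given in the order KO replicates 2 and 3, then WT replicates 2 and 3. The reads at a peak summit were recovered from the deposited values, and the most frequent local background was 8.66 reads in WT replicate 2 and 10.9 to 11.7 in the other libraries. As a look at the cell type, the 8 B cell and germinal center markers lay between percentiles 95.9 and 99.9 of all genes in covered bases per kb. The 4 T cell markers lay between 8.17 and 93.9, the 4 myeloid markers between 8.17 and 95.8, and the 3 erythroid markers between 23.9 and 78.4, with no peak at Cd8a or Lyz2. These are levels of a DNA mark and not of expression, so they do not test the label.

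The start sites are shown first because peak coverage differed there between members. RefSeq (GRCm38.p6) gave a sequence from 250 bases before to 50 bases after the start for 5 of the 7 members, with 3 starts for Tcf12 and so 7 sequences in all; Tcf4 and Id1 had none in the table. Each is printed 5′ to 3′ on the strand of the gene, with CG dinucleotides, the usual site of methylation, in capitals.
Pax5, chr4:44710645-44710944, minus strand: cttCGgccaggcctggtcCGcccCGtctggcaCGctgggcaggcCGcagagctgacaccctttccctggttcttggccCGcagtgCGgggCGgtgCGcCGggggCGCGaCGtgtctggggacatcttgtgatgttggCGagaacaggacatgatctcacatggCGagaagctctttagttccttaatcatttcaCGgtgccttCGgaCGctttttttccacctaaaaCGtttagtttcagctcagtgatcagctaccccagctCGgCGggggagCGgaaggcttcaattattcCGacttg
Tcf3, chr10:80433586-80433885, minus strand: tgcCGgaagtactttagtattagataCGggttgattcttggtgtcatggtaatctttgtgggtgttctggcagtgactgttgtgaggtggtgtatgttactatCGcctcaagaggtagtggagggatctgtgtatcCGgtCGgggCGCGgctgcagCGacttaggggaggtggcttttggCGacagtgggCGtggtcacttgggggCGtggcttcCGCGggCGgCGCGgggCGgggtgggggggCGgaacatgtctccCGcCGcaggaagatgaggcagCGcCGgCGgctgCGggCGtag
Tcf12, chr9:72111152-72111451, minus strand: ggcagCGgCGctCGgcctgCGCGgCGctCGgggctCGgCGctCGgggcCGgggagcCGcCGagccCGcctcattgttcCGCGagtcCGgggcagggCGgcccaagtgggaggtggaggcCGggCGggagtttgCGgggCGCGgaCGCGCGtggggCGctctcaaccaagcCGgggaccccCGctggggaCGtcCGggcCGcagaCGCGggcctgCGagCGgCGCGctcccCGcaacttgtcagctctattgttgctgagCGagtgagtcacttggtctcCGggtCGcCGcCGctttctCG
Id2, chr12:25096043-25096342, minus strand: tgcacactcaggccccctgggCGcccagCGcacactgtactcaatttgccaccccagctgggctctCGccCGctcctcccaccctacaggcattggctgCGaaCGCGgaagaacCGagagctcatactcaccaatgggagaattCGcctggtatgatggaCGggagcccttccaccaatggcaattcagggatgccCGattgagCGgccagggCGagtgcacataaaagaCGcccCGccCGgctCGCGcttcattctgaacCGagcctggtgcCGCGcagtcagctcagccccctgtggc
Id3, chr4:136143572-136143871, plus strand: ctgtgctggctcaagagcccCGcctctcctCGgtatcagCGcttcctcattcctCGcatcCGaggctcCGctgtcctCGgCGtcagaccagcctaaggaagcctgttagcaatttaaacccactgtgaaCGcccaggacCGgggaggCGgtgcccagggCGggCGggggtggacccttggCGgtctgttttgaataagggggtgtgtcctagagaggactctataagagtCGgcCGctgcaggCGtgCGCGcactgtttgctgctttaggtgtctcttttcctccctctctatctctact

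The 5 sequences shown held more CG than the median promoter. There were 23 CG dinucleotides in that of Pax5, 25 in Tcf3, 45 in Tcf12, 21 in Id2 and 19 in Id3, where the median over 21263 promoters of protein-coding genes was 13. The other Tcf12 starts had 41 and 0, the latter at 71896096 inside the gene. The start of Pax5 alone lay under a peak: the 3′-most 170 bases of the printed sequence were covered in KO replicate 2 and the 3′-most 124 in KO replicate 3, against 110 and 137 in the WT replicates, with 8 to 10 of its CG dinucleotides under the peak. Of the 7 promoter sequences of members, 1 thus overlapped a peak in any library, and 8.22% of all those promoters did. The nearest peak to the Tcf3 start was 717 to 799 bp away, upstream, in every library. The Tcf12 start shown had a peak 106 to 131 bp away in KO replicate 2, KO replicate 3 and WT replicate 2, and none closer than 5323 bp in WT replicate 3. For Id3 the distance was 1642 to 2284 bp, and for Id2 2387 to 5993 bp. The E-box CANNTG, searched on both strands and free to overlap a CG through its N bases, occurred in 6 of the 7 sequences and in 69.0% of all promoters of that length.

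Pax5 (chromosome 4, 44524748 to 44710694, minus strand) had dense 5hmC peak coverage, spread over its whole length. The KO replicates had 60 and 51 peaks in its window and the WT replicates 64 and 58. These spanned 36438, 24090, 38294 and 33473 bases, or 19.2%, 12.7%, 20.2% and 17.6% of the window. KO replicate 3 was the lowest of the 4, and the KO and WT values overlapped. After scaling to equal totals per library the mean was 174 bases per kb, at percentile 97.3 of all genes. Of the 68 union regions in Pax5, 41 had a peak in all 4 libraries. Peaks from both WT libraries and from no KO library were seen in 2 of the 68, where 2.24% of genic union regions had that pattern. The reverse pattern, both KO libraries and no WT library, was seen in 0, beside 1.26% of genic union regions.

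The peaks of Pax5 were many and wide but not strong. Among the 213429 union regions with a peak in every library, which rank the same regions in each list, those of Pax5 had a median percentile of fold enrichment of 28.8 and 22.0 in the KO replicates, 34.8 and 24.8 in the WT replicates. Both KO percentiles were below both WT percentiles in 7 of the 41 (15.1% of all shared regions) and above them in 5 (16.3%). The fold enrichments are the authors' own values per peak and are used here to describe peaks. The strongest peak in 3 libraries lay near the far end of the gene, at 44525719 to 44526621, with an enrichment of 8.80-fold in KO replicate 2, 12.7-fold in WT replicate 2 and 10.8-fold in WT replicate 3, and it was 5.08-fold in KO replicate 3. The region with the most covered bases summed over the 4 libraries was at 44674543 to 44676247, about 35.3 kb after the start, with 1695, 1415, 1597 and 1619 covered bases. Coverage leaned toward the start: with the span cut into 10 equal parts, the 4 nearest the start site held 37 of the 66 union regions inside the span and between 62.3% and 67.1% of the covered bases in each library.

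**Figure D1:**
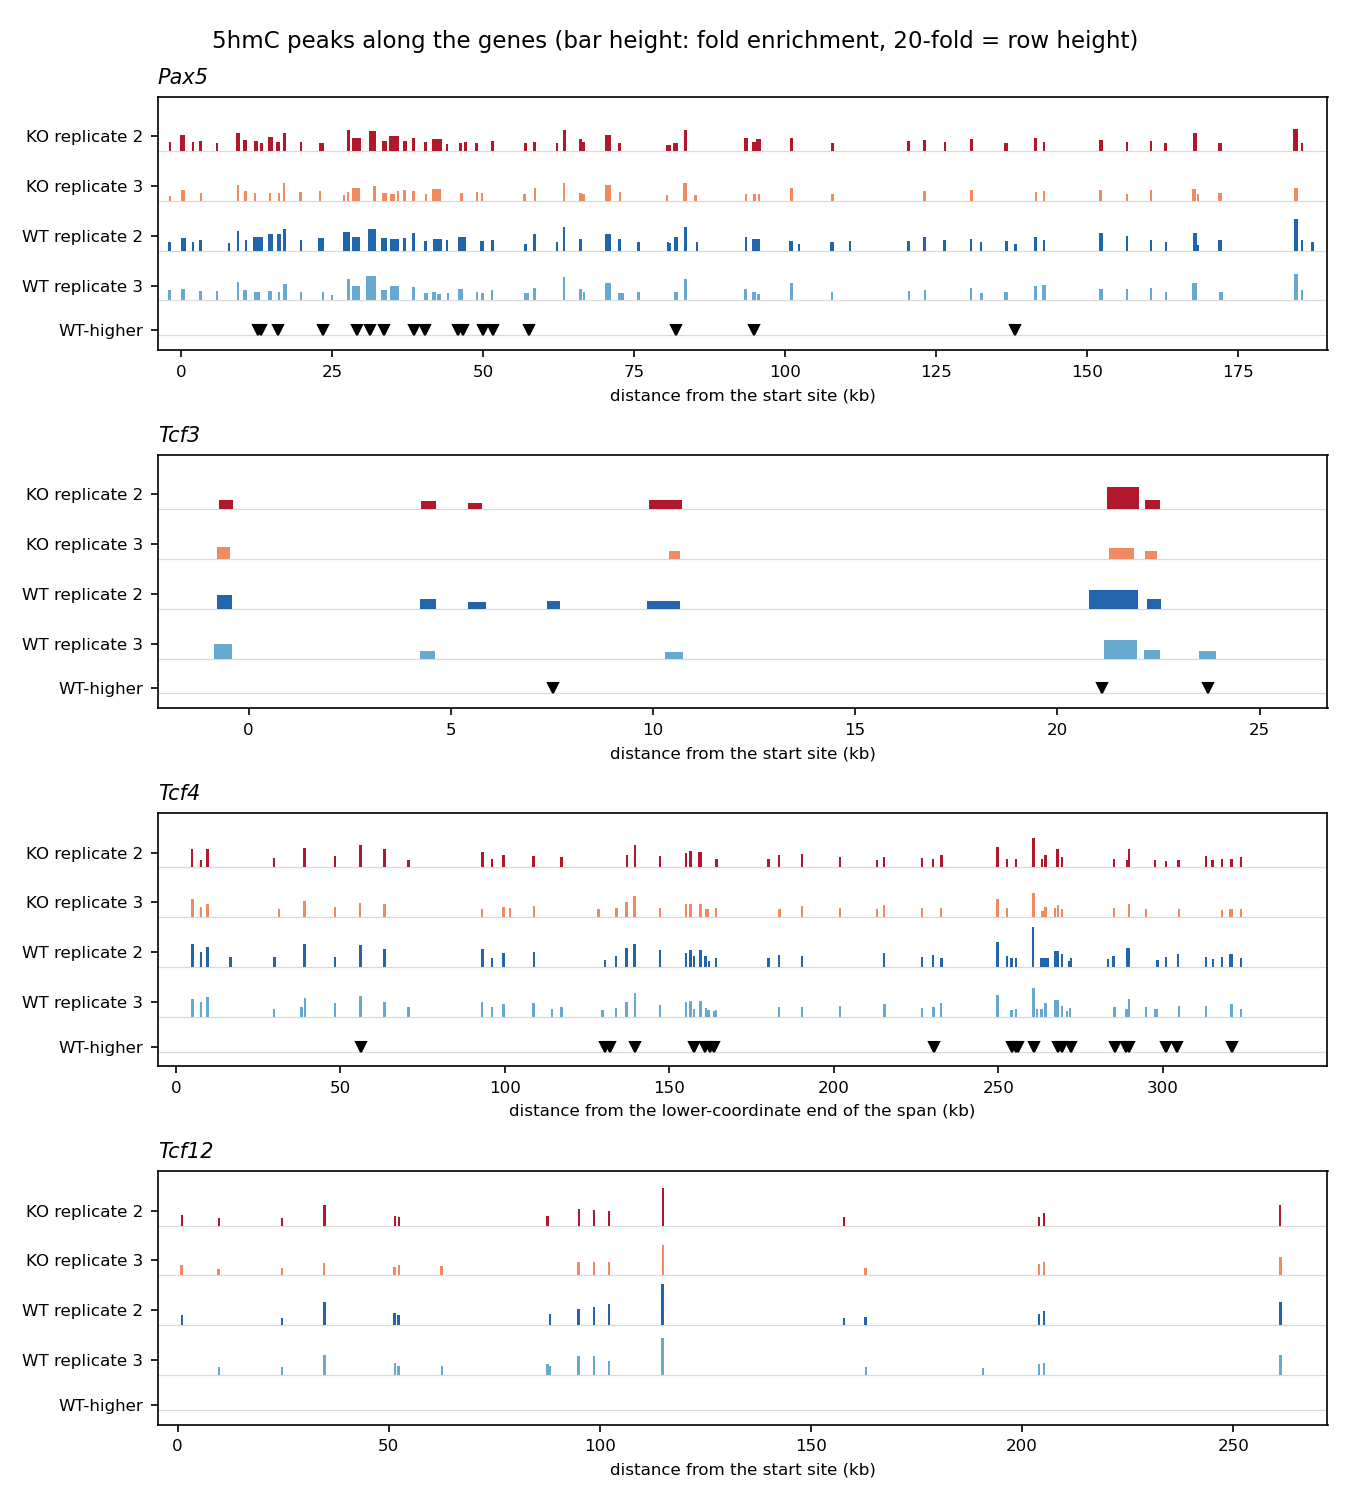
Position of every 5hmC peak in the windows of Pax5, Tcf3, Tcf4 and Tcf12. The x axis is the distance in kb from the start site (for Tcf4 from the lower-coordinate end of the span), each row is 1 library, bar height is the deposited fold enrichment, and the narrowest bars are widened to stay visible. Triangles mark the regions that the authors list as higher in WT: 17 in Pax5, 3 in Tcf3, 22 in Tcf4 and 0 in Tcf12.

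Tcf4, which encodes an E protein known for plasmacytoid dendritic cells and also made in B cells (chromosome 18, 69343429 to 69687967), had fewer peaks per kb over a longer span. Its peaks numbered 49 and 45 in KO, 53 and 57 in WT. Their summed length was 24609, 18368, 28672 and 29372 bases. Both KO libraries were below both WT libraries, also after scaling (22982 and 21243 scaled bases in KO, 29395 and 26968 in WT). All 4 libraries had a peak in 32 of its 67 union regions. Peaks from both WT and no KO library were seen in 4 (2.24% of genic union regions), and the reverse in 1 (1.26%). In shared regions of Tcf4 the median percentile of fold enrichment was 35.7 and 39.9 in KO, 48.0 and 49.0 in WT. Both KO percentiles were below both WT percentiles in 9 of 32 (15.1% of all shared regions) and above in 3 of 32 (16.3%). The strongest peak, at about 260.5 kb from the lower-coordinate end, was the same in all libraries, with 11.9 and 9.77-fold enrichment in KO, 15.9 and 11.6-fold in WT. Next to it lay the widest region of any member, 69606031 to 69608636, which had 1486 and 1097 covered bases in KO and 2501 and 1841 in WT. The authors do not list that region as higher in WT, and it did not pass the test of single regions below (adjusted p = 0.991 in limma).

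Tcf3, the E protein gene most needed for early B cells (chromosome 10, 80409541 to 80433976, minus strand), is short and had 6 and 4 peaks in KO, 7 and 6 in WT. These covered 3061, 1514, 3876 and 2882 bases. KO replicate 3 was again lowest, and KO replicate 2 exceeded WT replicate 3. The widest region was at the far end of the gene, 80411954 to 80413189, with 807, 618, 1200 and 817 covered bases and enrichments of 8.79, 4.63, 7.75 and 7.40-fold. The window overlaps that of Uqcr11, and the shared stretch held no peak.

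Tcf12, the gene of the E protein HEB (chromosome 9, 71844252 to 72111893, minus strand), had sparse 5hmC for its length. It held 15 peaks in each of KO replicate 2, KO replicate 3 and WT replicate 2 and 17 in WT replicate 3, over 6173, 5277, 6009 and 6755 bases, which is 1.94% to 2.49% of the window. At 22.3 scaled bases per kb it lay at percentile 30.8 of all genes, beside 97.3 for Pax5, 88.2 for Tcf3 and 77.5 for Tcf4. Its peaks were nevertheless stronger within each list than those of Pax5: shared regions had median percentiles of fold enrichment between 48.2 and 58.9. The peak at 71996598 to 71997323, about 114.9 kb after the start, was the strongest of any member in each library, with 15.2, 12.3, 16.6 and 14.7-fold enrichment, from 190, 145, 159 and 185 reads at the summit.

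The Id genes had few or no peaks. Id1 (chromosome 2, 152736251 to 152737410) had none in its 5.16 kb window in any library, and the nearest peak lay 4420 to 4563 bp from the gene. Id2 (chromosome 12, 25093799 to 25096092) had 2 peaks, both in WT replicate 2 and beyond the end of the gene, with 2.8 and 3.0-fold enrichment from 26 and 28 reads. The other libraries had 0 covered bases at Id2. Signal under the peak threshold is not seen in these lists, so the absence of a peak in 3 libraries does not show a difference. Id3, an Id gene mutated in Burkitt lymphoma (chromosome 4, 136143822 to 136145392), had 2 regions with a peak in all 4 libraries, both starting within 2 kb after its end. In the window they covered 811, 650, 987 and 840 bases. These were among the weakest shared regions in every list, with median percentiles of 1.97 to 3.11. Id3 still stood at percentile 95.7 in bases per kb, over a window of 5.57 kb.

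**Figure D2:**
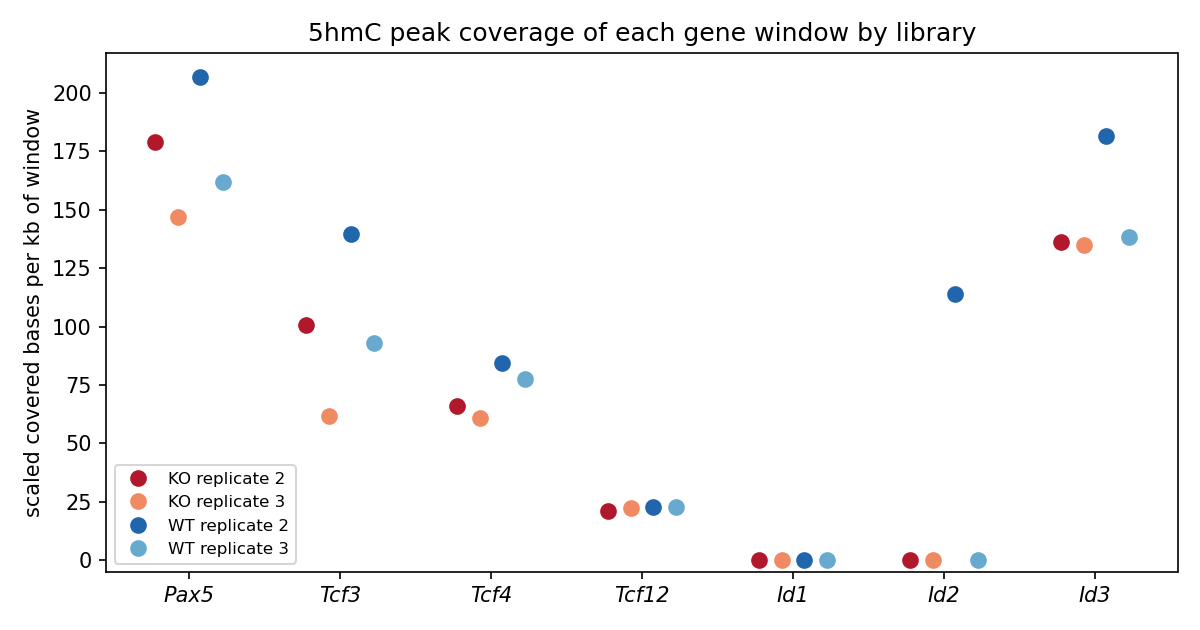
Scaled covered bases per kb of window (y axis) for the 7 genes (x axis), 1 point per library. By the mean of the 4 libraries Pax5, Id3 and Tcf3 lie highest, WT replicate 2 is the top library for Pax5, Tcf3, Tcf4, Id2 and Id3, and Id1 has 0 in all 4 libraries.

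Coverage was compared between genotypes with limma on log2(scaled covered bases + 200) over 13998 genes with a mean of at least 500 bases. This scale understates changes of genes with few covered bases. Scaling to equal totals also removes any change in covered bases that is shared over the whole genome. The tests of genes, and of single regions below, thus concern only changes relative to the total of each library. Of the members, 5 were tested; Id1 and Id2 had too little coverage. All 5 estimates were below 0, as were those of 7315 of the 13998 genes tested. Of the 5 members, 0 passed an adjusted p of 0.05 (Benjamini-Hochberg over all genes tested), as did 0 of all genes (0%). An unadjusted p under 0.05 was reached by 591 genes (4.22%), among them Tcf4 alone of the members.

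Tcf4 had a log2 change, KO against WT, of -0.35 (standard error 0.08, 95% interval -0.54 to -0.16, unadjusted p = 0.00509, adjusted p = 1.0 in limma). It was lower in 2 of 2 KO libraries than in either WT library, as 16.6% of tested genes were. Tcf3 had the largest estimate, -0.50 (standard error 0.29, interval -1.23 to 0.23), and Pax5 had -0.17 (standard error 0.15, interval -0.55 to 0.20). For Id3 it was -0.18 (standard error 0.21, interval -0.72 to 0.35), and for Tcf12 -0.06 (standard error 0.10, interval -0.30 to 0.18). The libraries of the genotypes also did not overlap for Tcf12 and Id3, but by narrow gaps: the highest KO and lowest WT value were 6103 and 6161 scaled bases for Tcf12 and 757 and 771 for Id3. Single libraries moved most of these values in both directions. Pax5 had 0.0027 without WT replicate 2 and -0.03 without KO replicate 3, but -0.35 without WT replicate 3 and -0.32 without KO replicate 2. Tcf3 had -0.22 and -0.17 with the first pair of omissions and -0.77 and -0.82 with the second. Id3 had -0.03 without WT replicate 2 and -0.34 without WT replicate 3, and Tcf12 had -0.02 without KO replicate 2 and -0.10 without KO replicate 3. Tcf4 kept an estimate between -0.41 and -0.29 with any 1 library left out. Other settings moved Tcf4 further: it had -0.24 (standard error 0.15) with equal numbers of peaks per list and -0.45 (standard error 0.21) without scaling.

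**Figure D3:**
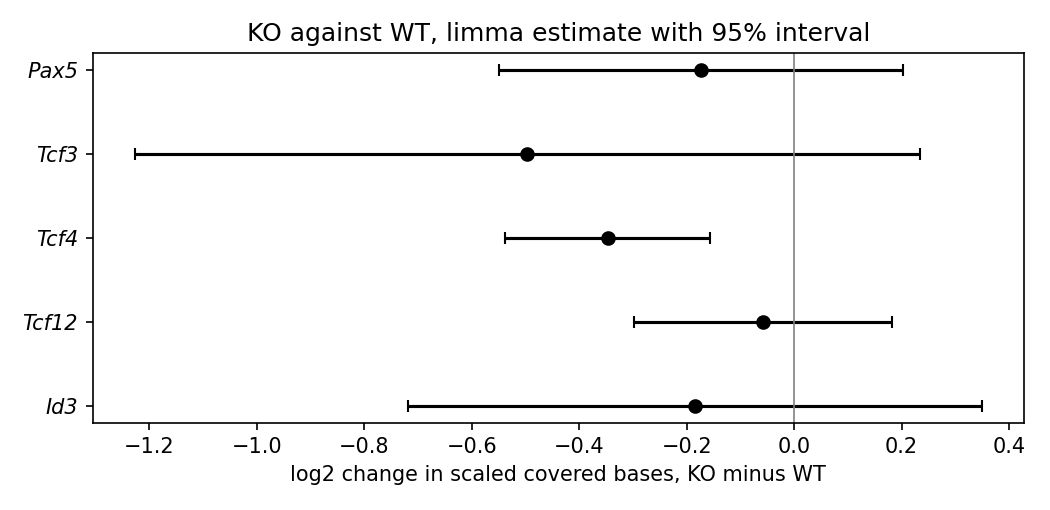
Log2 change in scaled covered bases, KO minus WT (x axis), for the 5 tested genes, as limma estimate (point) with its 95% interval (bar), from 2 libraries per genotype. The interval of Tcf4 lies below 0, from -0.54 to -0.16, and those of the other 4 genes include 0.

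Single regions gave no call either. With limma on log2(scaled covered bases + 50), 0 of 142 member regions with a peak in at least 2 libraries passed, and 0 of 294556 regions in all (0%). This depended on the settings: 1425 regions passed without scaling, 2 of them in members, and 2818 with no filter on the number of libraries, 7 of them in members. An unadjusted p under 0.05 was reached by 9 member regions, 5 of them in Tcf4, 3 in Pax5 and 1 in Id3, and by 2.12% of all regions. The lowest p among members, named after its value was seen, belonged to the Tcf4 region at 69610315 to 69611773, which had 790 and 857 covered bases in KO and 1420 and 1436 in WT (adjusted p = 0.991 in limma, log2 change -0.66, standard error 0.16).

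The authors' deposited tables of differential regions, which carry a score but no replicate values, set the members apart. They list 22 regions as higher in WT in Tcf4, 17 in Pax5 and 3 in Tcf3, and 0 in Tcf12, Id1, Id2 and Id3. No member held a region listed as higher in KO; there are 50 of those in all, and 0.00806% of genic union regions contain one. By number, Tcf4 ranked 14 and Pax5 33 among all genes. Of the members, 3 of the 6 with a union region had a WT-higher region, beside 28.3% of such genes in all.

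A count of regions grows with the length and number of peaks of a gene, so the share of union regions that contain one was also taken. It was 28.4% in Tcf4 (19 of 67, 95% Wilson interval 19.0 to 40.1%), 22.1% in Pax5 (15 of 68, interval 13.8 to 33.3%) and 37.5% in Tcf3 (3 of 8, interval 13.7 to 69.4%). Over all genic union regions the share was 7.26%. Tcf12, a longer gene than Pax5, had 0 of 19 (interval 0 to 16.8%), an interval that includes the genic share. These intervals cover counting error only, and regions of 1 gene are not independent. With regions of score at least 5 in the authors' deposited table, the shares were 10.4% in Tcf4, 13.2% in Pax5 and 12.5% in Tcf3, beside 3.13% of genic union regions. With peaks of at least 5-fold enrichment they were 28.6% in Tcf4, 26.7% in Pax5 and 1 of 2 regions in Tcf3. The genic share was then 11.1%. Member regions were also wider than genic ones (median 482 against 439 bases), and the shares were not matched for width.

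In Pax5 the WT-higher regions gathered in the part of the gene nearest the start, where the peaks were also most numerous. Of the 17, 14 lay in the 4 parts of 10 nearest the start site, and the midpoints ran from 12.8 to 138.1 kb after it. The start-site peak itself was not listed. The 5 top-scoring ones in the authors' deposited table were at 44572513 to 44572774 (score 7.67), 44660641 to 44660862 (6.92), 44652975 to 44653246 (6.88), 44659024 to 44659237 (6.22) and 44628432 to 44628948 (5.81). That of score 7.67 overlapped a peak of WT replicate 2 alone, with 2.81-fold enrichment from 32 reads. That of score 6.88 overlapped a peak of WT replicate 3 alone, with 2.92-fold enrichment from 36 reads. Both peaks were weaker than the median peak of Pax5 in their library (4.50 and 4.07-fold). The strongest peaks with a WT-higher region in Pax5, named after their values were seen, lay over 44679199 to 44679509 (score 3.68). They had 8.01-fold enrichment in KO replicate 2, 8.90-fold in WT replicate 2 and 9.77-fold in WT replicate 3, with summits outside the listed region. The peak of KO replicate 3 in the same union region (6.20-fold) did not reach the listed region.

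In Tcf4 the WT-higher regions formed 2 groups, chosen here after their positions were seen. With its span cut into 10 equal parts from the lower coordinate, part 5 held 5 and parts 8 and 9 held 12 of the 22. Parts 8 and 9 held 31.8% and 27.3% of the covered bases of the span in KO replicates 2 and 3, and 39.4% and 36.9% in WT replicates 2 and 3. These parts were picked by their WT-higher regions, a choice that favors lower shares in KO, so this order restates it. The 5 top-scoring ones in the authors' deposited table were at 69399674 to 69399988 (score 8.94), 69504236 to 69504512 (7.77), 69597214 to 69597575 (7.59), 69632204 to 69632422 (7.09) and 69615236 to 69615551 (6.17). The region of score 8.94 overlapped a strong peak, with 9.08-fold enrichment in KO replicate 2, 8.70-fold in WT replicate 2 and 8.40-fold in WT replicate 3. The summits in KO replicate 2 and WT replicate 2 lay outside the listed region, so these folds do not measure the listed region itself. The peak of KO replicate 3 in the same union region (5.81-fold) did not reach the listed region. Those of score 7.59 and 6.17 overlapped peaks from both WT libraries and from no KO library.

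The 3 regions in Tcf3 were at 80426309 to 80426587 (score 7.42 in the authors' deposited table), 80412753 to 80412996 (4.33) and 80410120 to 80410371 (3.82). The region of score 7.42 overlapped a peak of WT replicate 2 alone (3.02-fold), and that of score 3.82 a peak of WT replicate 3 alone (3.15-fold). The one of score 4.33 lay in the widest region of the gene and overlapped a peak in every library but KO replicate 3. The peak of KO replicate 2 ended at 80412760, just inside the listed region. That of KO replicate 3 (4.63-fold) ended at 80412690, just before it.

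The WT-higher regions of these genes often did not overlap a peak of KO replicate 3. Peaks of that library were the narrowest, with a median width of 347 bases against 406 to 431 in the other lists. At some listed regions it had a peak in the same union region that stopped short, as in that at 69399216 to 69399959 in Tcf4. Of the 42, 15 (35.7%) overlapped a peak in all 4 libraries, beside 76.1% of all 24641 WT-higher regions on these chromosomes. A peak of WT replicate 2 overlapped 37, of WT replicate 3 34, of KO replicate 2 28 and of KO replicate 3 17; over all WT-higher regions the percentages were 92.9%, 90%, 85.7% and 76.9%. In 10 of the 42 KO replicate 3 was the one library without an overlapping peak. Peaks from both WT and no KO library overlapped 4 (894 of 24641 over all WT-higher regions). Another 2, both in Tcf4, overlapped no peak in any library (1219 of 24641). The listing itself selects for more signal in WT, so the order of the genotypes restates that choice. KO replicate 3 also had the fewest covered bases of all lists, and its part in the listed differences was not tested.

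**Figure D4:**
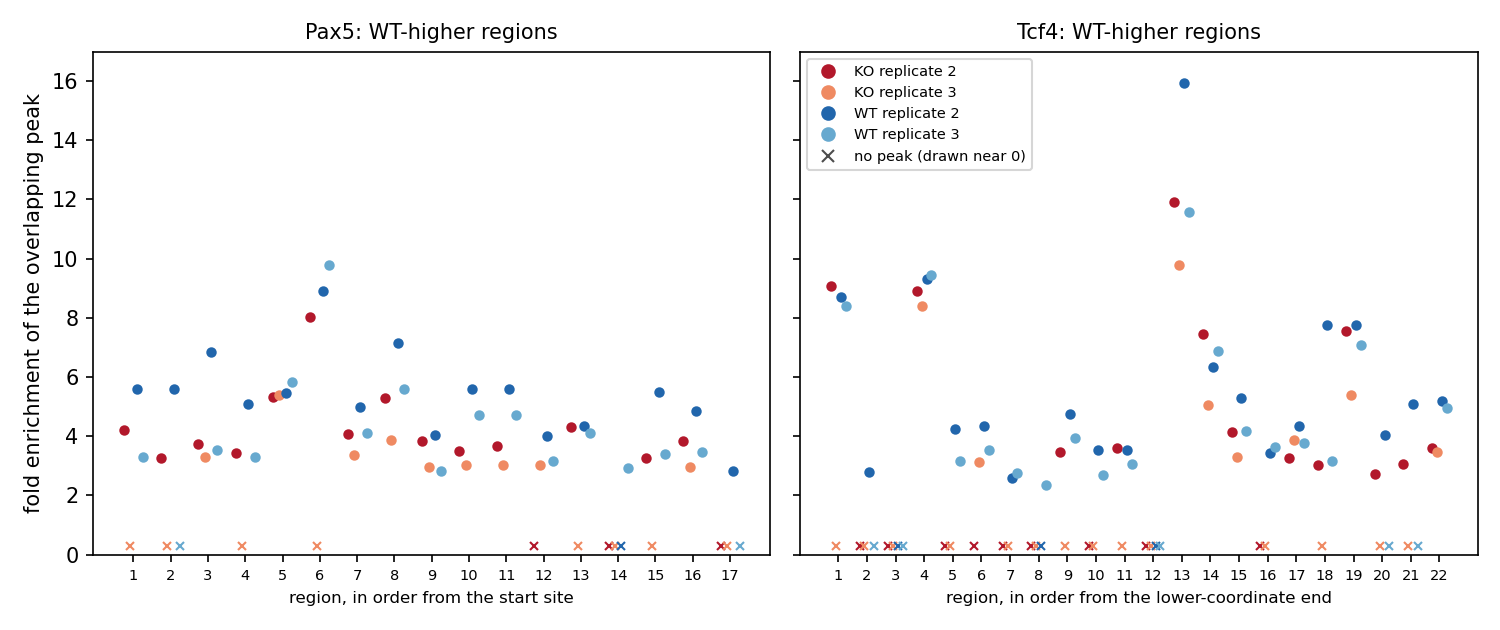
Deposited fold enrichment (y axis) of the peak that overlaps each WT-higher region of Pax5 (17 regions, left, in order from the start site) and Tcf4 (22 regions, right, in order from the lower-coordinate end), 1 point per library. The fold enrichment is that at the peak summit, which can lie outside the listed region. Crosses mark libraries with no overlapping peak: KO replicate 3 has 8 in Pax5 and 14 in Tcf4, WT replicate 2 has 1 and 3.

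The genes that Pax5 and the E proteins act on were taken from lists. Genes activated by Pax5 were mostly dense in 5hmC: the median percentile of covered bases per kb was 99.1 over 15 genes, against 42.1 over 8 genes repressed by it and 79.1 over 8 genes activated by E proteins. No gene of these lists passed the test of KO against WT (0 of 15, 0 of 6 and 0 of 5 tested, with 0% of all genes), and the median log2 changes were -0.07, -0.14 and -0.20, beside -0.01 over all genes tested. The lists held 65, 22 and 48 WT-higher regions in 12 of 15, 6 of 8 and 4 of 8 genes, beside 28.3% of all genes with a union region; these counts were not set against gene length or number of peaks. The 3 genes with the most were Ebf1, the early B cell factor, with 26, Ikzf3, the Ikaros family gene Aiolos, with 20, and Foxo1, a forkhead factor of the dark zone, with 19. Scaled covered bases were 38320 and 37628 in KO against 48966 and 40129 in WT for Ebf1, which did not overlap. For Ikzf3 they were 31822 and 27890 against 38365 and 32266, also without overlap, and for Foxo1 21511 and 17811 against 28230 and 18710, with overlap. These 3 genes were picked by their WT-higher regions, a choice that favors lower values in KO, and 16.6% of all tested genes were lower in both KO libraries. Csf1r stands among both the genes repressed by Pax5 and the myeloid markers. Of the other family genes, Id4 had 1 union region, Pax2 26 and Pax8 14, and these had 0 WT-higher regions.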

How the data were processed

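Germinal center B cell DNA had been immunoprecipitated for 5hmC in 2 KO and 2 WT libraries. BWA 0.7.12-r1039, MACS2 2.1.0.20151222 and GRCm38.p3 are named in the submitters' processing notes, with no settings. The authors deposited 1 peak list per library in the MACS2 column layout, so peaks were called per library. Each deposited peak has a position, a summit, a score, a fold enrichment (ratio over the caller's local background) and −log10 p-values and q-values. The score of a peak is the whole part of its −log10 q times 10, from the deposited values. The authors also deposited 2 tables of differential regions with a score whose scale, caller and compared libraries are not given in the sources used here.

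Peaks on the numbered and sex chromosomes were merged with pandas 2.3.3. Gene spans came from RefSeq GRCm38.p6, a later patch that leaves chromosome positions of GRCm38.p3 as they were. No exon table was used, so exons and introns were not told apart. Strand came from the RefSeq promoter table. Covered bases were scaled to the mean total of the 4 lists and tested with limma 3.58.1 (trend, robust) in R 4.3.3, on all genes or regions, after the script was tested on simulated data. Summit reads were recovered from fold and −log10 p within 0.001, for at least 99.997% of peaks per library. Differential regions were counted at an overlap of 1 bp. The 7 members are named throughout; other genes come from lists of Pax5 targets, E protein targets and cell type markers, the 3 with the most WT-higher regions and Id4 being named. In a member with over 5 differential regions, the 5 of highest score are named. Members and lists were chosen with earlier results of these data known. The alternatives are given in the closing section.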

Additional observations from a re-analysis of the deposited data

How the results depend on the processing

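Of 63 values for the 5 tested members under other settings, 60 kept the sign of the log2 change, and 0 passed the limma threshold. The exceptions were Tcf12 with peaks of at least 5-fold enrichment (0.34) and with equal numbers of peaks (0.012), and Pax5 without WT replicate 2 (0.0027). The causes were not tested. The replicate block and dropping the filter on low values leave each estimate as it was in the main fit. Signs under these settings could not change, so they say nothing on stability. With 1 library left out, the lone sample of a genotype is assumed to vary like the other genotype. The count of genes passing stayed at 0 under every setting run. Without scaling the median log2 change over all genes was -0.10 in place of -0.01. Id2 was measured only without the filter on low values (-1.10, standard error 0.89) and Id1 and Id2 in windows with 10 kb on each side (0.36 and -0.24); none passed.

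For single regions the count moved from 0 to 1425 without scaling (2 in members), 1 with a pseudocount of 200, 2818 with no filter on the number of libraries (7 in members) and 14006 with a replicate block (12 in members); the causes were not tested. The replicate numbers did not pair the libraries: over 13998 genes, the differences KO replicate 2 minus 3 and WT replicate 2 minus 3 correlated at 0.09. The replicate block left 0 genes passing, with Tcf4 at -0.35 (standard error 0.06, adjusted p = 0.244). The 42 WT-higher regions in members fell to 19 at a score of at least 5, and the 166 union regions to 67 with peaks of at least 5-fold enrichment. Signal below the peak threshold is not seen in these files.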

Other observations

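The nearest peak lay 4420 to 4563 bp from Id1 and 72 to 714 bp from Id3 over the 4 libraries. For Id2 it lay 94 bp away in WT replicate 2 and 2798 to 3700 bp away in the other 3. With 10 kb on each side in place of 2 kb, Id1 had 4 union regions, Id2 7 and Id3 6, and 0 WT-higher regions lay in these wider windows. Id1 then had 1607 and 940 covered bases in KO replicates 2 and 3, 731 and 1305 in WT replicates 2 and 3, so the values of the genotypes overlapped. Id2 had 1886, 1355, 2179 and 1938, and Id3 had 3259, 2632, 3183 and 3115, in the same order. The nearest region that the authors' deposited table lists as higher in WT was 18908 bp from Id3, 57016 bp from Id2 and 63063 bp from Id1. For Tcf12, which held none, it was 92983 bp away, on the side of the gene's end.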
